A study of Mus musculus with 6 samples.

Results

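Gata4, Gata6, Sox17, Sox7, Foxa2, Cdx2, Eomes, T, Mixl1 and Gsc are 10 transcription factor genes that direct the germ layers and the extraembryonic lineages of the mouse embryo. Their accessible sites were taken from 2 ATAC-seq peak lists as all peaks that overlapped the body of a gene or lay within 50 kb of it in the GENCODE annotation of mm9. By this rule 16 of 22698 WT peaks and 15 of 23656 Spen KO clone 3 peaks on chromosomes 1 to 19 and X belonged to the 10 loci. The 10 genes were all found among the 22342 coding genes on these chromosomes.

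ATAC-seq maps open chromatin by letting the Tn5 transposase insert sequencing adapters into accessible DNA. The study profiled haploid mESCs, described in the labels as of mixed genomic background, that carry a doxycycline-inducible Xist transgene and were grown in serum and LIF on gelatin. The groups used here were HATX WT, in which Spen is intact, and Spen KO clone 3, a single clone with a deletion of Spen, the gene of an RNA-binding corepressor. Samples of each line were collected without doxycycline or after 48 hr in 2 ug/ml doxycycline, but neither list says which of these states it represents, so no value here can be assigned to one. Spen KO clone 2 was not analysed here. Each list combines 2 replicates, called technical in the paper, into 1 set of reproducible peaks. The labels give each line 1 sample without doxycycline and 1 with it. Whether the 2 replicates of a list are these states is not stated, so their spread may include doxycycline. A difference between the lines has no replicate check, and no test was made. Such a difference cannot be told apart from one between cultures or between list depths. The number of reads behind either list is unknown.

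As background, the primitive endoderm, which forms the yolk sac, is set apart from the pluripotent epiblast by GATA and SOXF factors, and the trophoblast by CDX2 and EOMES. At gastrulation the T-box factors Brachyury and EOMES and the homeodomain factors MIXL1 and GSC act in the primitive streak, and FOXA2 and SOX17 act in the endoderm that leaves it. In mESCs these genes are developmental genes, often with CpG-rich promoters, that are held at low expression until differentiation.

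Each peak carries a value for replicate 1 and a value for replicate 2 on a scale without a stated name, and an Irreproducible Discovery Rate (IDR), which was at most 0.05. The mean of both values is called the score, and a percentile is the rank of that score within its own list, with 100 as the top. Values were ranked within a list and not compared between lists, because the median score was 19.4 in the WT list and 17.9 in the Spen KO clone 3 list. Replicates of a list ranked the same peak with a median difference of 8.84 percentile points in WT and 8.91 in Spen KO clone 3, and 1 peak in 10 differed by more than 29.1 and 28.7 points. Peaks that shared at least 1 bp with the other list are called shared, and the rest WT-only or Spen KO clone 3-only.

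Few of the regulator genes had a listed peak at their promoter. A TSS peak, one within 1 kb of the start of a coding transcript, was present at 2 of the 10 genes in the WT list, Gata4 and Foxa2, against 45.3% of all coding genes, and at 2 of 10 in the Spen KO clone 3 list, Foxa2 and Eomes, against 41.5%. Foxa2 alone had a TSS peak in both lists (1 of 10, against 37.1% of coding genes), Gata4 had one in the WT list only (1 of 10, against 8.23%) and Eomes in the Spen KO clone 3 list only (1 of 10, against 4.43%). With 10 genes, the shares for 1 list only differ from the background by less than 1 gene. With peaks limited to an IDR of at most 0.01, 1 gene (Foxa2) had a TSS peak in WT and 0 in Spen KO clone 3. None then had one in both lists. The lists themselves shrank at that limit, to 15211 WT and 14334 Spen KO clone 3 peaks. The share of coding genes at that limit was not counted, so no result about the members is drawn from this change. The promoters of Gata6, Sox17, Sox7, Cdx2, T, Mixl1 and Gsc held no peak in either list (7 of 10, against 50.3% of coding genes).

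Most of the member promoters were rich in CpG. The 2 kb around the start richest in CpG had an observed over expected CpG ratio between 0.550 at Sox17 and 0.890 at Gsc, where the median coding gene had 0.494. By a ratio of at least 0.6 and a GC content of at least 50%, 8 of the 10 genes were CpG-rich, all but Gata6 (0.583) and Sox17, against 32.1% of coding genes. Among all 7169 CpG-rich coding genes 74.1% had a TSS peak in the WT list and 67.4% in the Spen KO clone 3 list, against 2 of 8 member genes in each. At least 92.7% of the 24-base sequences of every member promoter occurred once in the genome. The part of CpG content and of repeated sequence in the count of TSS peaks was not tested.

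Counted over whole loci, 6 of the 16 WT peaks were WT-only (37.5%, against 25.7% of all WT peaks) and 5 of the 15 Spen KO clone 3 peaks were Spen KO clone 3-only (33.3%, against 28.6%). Member peaks were mostly low-ranking, with a median percentile of 33.2 in WT (6.45 to 92.2) and 30.9 in Spen KO clone 3 (4.92 to 92.6), and low-ranking peaks were more often found in 1 list. Below the list median, 5 of 12 member WT peaks were WT-only (against 45.2% of all such peaks) and 4 of 10 Spen KO clone 3 peaks were Spen KO clone 3-only (against 47.9%). At or above the median the counts were 1 of 4 in WT (against 6.17%) and 1 of 5 in Spen KO clone 3 (against 9.28%), which are the Sox17 peak and the Pdx1 promoter peak of the Cdx2 locus described below. Read by rank, each list-only count of the members was thus within 1 peak of the share over all peaks.

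Gata6 and T had no peak in either locus (2 of 10 genes, against 14.0% of coding genes with none in either list). Sox17 and Mixl1 also had none in the Spen KO clone 3 list, which left 2 of 10 loci empty in WT (against 18.1%) and 4 of 10 in Spen KO clone 3 (against 18.4%). The median locus held 1.00 WT peak and 1.50 Spen KO clone 3 peaks, where the median coding gene had 2 in each list. Member peaks had a median width of 529 bp in WT (333 to 832 bp), close to 546 bp over the list, and 475 bp in Spen KO clone 3 (351 to 815 bp), against 526 bp.

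**Figure D1:**
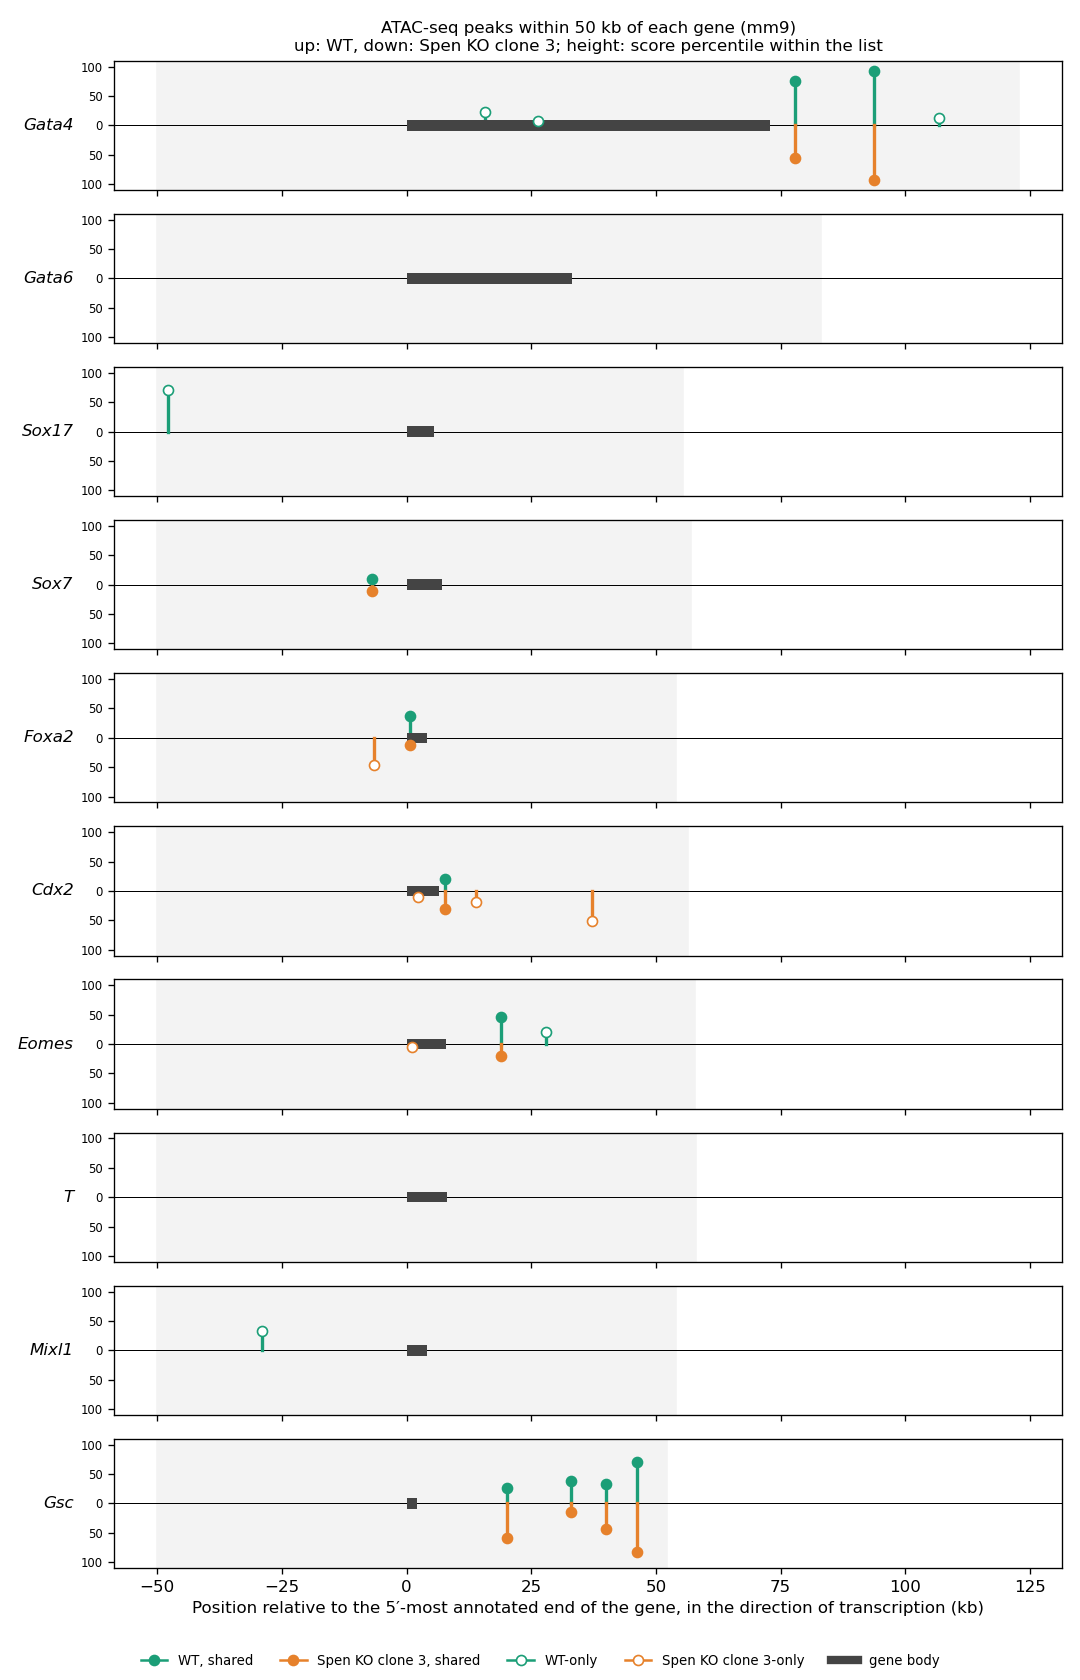
Peaks of the WT list (up) and the Spen KO clone 3 list (down) at the 10 loci in mm9, drawn against the distance in kb from the 5′-most annotated end of each gene in the direction of transcription. The height of a line is the score percentile within its list, filled circles are shared peaks, open circles are peaks of 1 list only, the dark bar is the gene body and the gray area is the window of 50 kb on either side, and the panels of Gata6 and T are empty while Gsc holds 4 shared peaks downstream of the gene.

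Gata4 encodes a zinc finger factor that drives the primitive endoderm and later the heart. Its locus (gene body chr14:63817759-63890529, minus strand) had 5 peaks in WT and 2 in Spen KO clone 3, and the 3 peaks missing from Spen KO clone 3 included both of those that lay inside Gata4. The WT-only TSS peak at chr14:63864042-63864396 was 355 bp wide, overlapped UTR sequence and had replicate values of 10.1 and 9.95. Its rank was 21236 of 22698 (percentile 6.45) with an IDR of 0.0364, so it was among the weakest peaks that the list kept. The WT-only intronic peak at chr14:63874346-63875100 (755 bp), 10.6 kb upstream of the nearest Gata4 start, had values of 17.1 and 12.1 and a percentile of 22.5. The nearest Spen KO clone 3 peak was 51.1 kb from the former and 61.4 kb from the latter.

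The remaining peaks of the Gata4 window belonged to its neighbours Fdft1, which encodes squalene synthase, and Neil2, which encodes a DNA repair glycosylase. The Fdft1 promoter peak at chr14:63796477-63797160 was shared and was the highest-ranking peak of all 10 loci in both lists, with values of 36.6 and 44.2 in WT (684 bp, percentile 92.2) and 40.9 and 32.9 in Spen KO clone 3 (652 bp, percentile 92.6). The Neil2 promoter peak at chr14:63812341-63812996 had values of 27.2 and 27.4 in WT (656 bp, percentile 75.3) and 20 and 17.6 in Spen KO clone 3 (533 bp, percentile 54.9). A WT-only peak in an Fdft1 intron, chr14:63783553-63783953 (401 bp), had values of 12.5 and 11.9 and a percentile of 12.9. In rank the Gata4 promoter stood far below these neighbouring promoters in the WT list, the only list that held it.

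Gata6, which encodes the GATA factor that acts first in primitive endoderm, lies on chromosome 18 (11052508 to 11085633, plus strand) in a locus of 133 kb that held no peak. The nearest WT peak was 327 kb from the gene, at the promoter of Mib1, a ubiquitin ligase gene of Notch signalling, with values of 28.0 and 26.5 and a percentile of 75.1. The nearest Spen KO clone 3 peak was 170 kb away and Spen KO clone 3-only, with values of 15.7 and 20.9 and a percentile of 52.3. No other coding gene lay within 50 kb of Gata6.

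Sox17 encodes a SOXF factor of both the primitive and the definitive endoderm. Its promoter (gene body chr1:4481009-4486494, minus strand) held no peak, and the only peak of the locus was WT-only, at chr1:4534104-4534565 (462 bp), in intergenic sequence 47.8 kb upstream of the start. Its values of 23.9 and 27.2 placed it at rank 6523 of 22698 (percentile 71.3) with an IDR of 1.81e-05, and it ranked highest of the list-only peaks at the 10 loci. It lay 47.6 kb from the gene body, just inside the 50 kb limit. The nearest Spen KO clone 3 peak, 15.2 kb farther out at chr1:4549748-4550899, was shared and had values of 17.9 and 17.1 there and 15.8 and 19 in WT. That peak was 63.3 kb from the gene body and so just outside the limit.

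Sox7, a SOXF gene of the primitive endoderm and of blood vessels, had 1 peak in each list and no TSS peak. The shared peak lay 7.02 kb upstream of the start (gene body chr14:64562511-64569569, plus strand) in intergenic sequence. In WT it spanned chr14:64555321-64555653 (333 bp) with values of 11.7 and 10.1 and a percentile of 8.86, and in Spen KO clone 3 it spanned chr14:64555247-64555721 (475 bp) with values of 12.1 and 9.12 and a percentile of 11.3. Its rank was low in both lists, and the replicate percentiles of the lists overlapped.

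Foxa2 encodes a forkhead factor of the endoderm, node and floor plate, and it was the only one of the 10 genes with a TSS peak in both lists. In WT the peak at chr2:147871772-147872367 (596 bp), in an intron of the longer transcripts and 385 bp upstream of the nearest start, had values of 18.0 and 16.3 and a rank of 14125 (percentile 37.8). In Spen KO clone 3 the peak at chr2:147871772-147872307 (536 bp) had values of 11.2 and 10.9 and a rank of 20616 (percentile 12.9). Both Spen KO clone 3 replicates (percentiles 14.5 and 13.4) ranked below both WT replicates (41.7 and 37.0). A distal peak 6.56 kb upstream, chr2:147879057-147879482 (426 bp), was Spen KO clone 3-only, with values of 12.2 and 22.4, a rank of 12555 (percentile 46.9) and an IDR of 0.0154. Its replicates stood apart, at percentiles of 17.5 and 69.3. The gene body of Foxa2 spans chr2:147868613-147872705 on the minus strand, and no other coding gene lay in its window.

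Cdx2, the homeobox gene that specifies trophectoderm and later the hindgut, had more peaks in Spen KO clone 3 (4) than in WT (1). The shared peak lay 0.799 kb beyond the 3′ end of the gene (gene body chr5:148112381-148118846, minus strand), 7.68 kb downstream of the start. In WT it spanned chr5:148110751-148111582 (832 bp, the widest member peak) with values of 14.5 and 14.0 and a percentile of 20.7, and in Spen KO clone 3 chr5:148110743-148111557 (815 bp) with values of 11.3 and 18.2 and a percentile of 30.9. The Spen KO clone 3 replicates of this peak, at percentiles of 14.8 and 53.3, enclosed the WT replicates at 24.6 and 23.1, so no difference stood out from the replicate spread.

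All 3 Spen KO clone 3-only peaks of the Cdx2 locus were on the 3′ side of its start. The intronic peak at chr5:148116384-148116734 (351 bp), 2.29 kb from the start, had values of 9.59 and 11.0 and a rank of 21229 of 23656 (percentile 10.3). The intergenic peak at chr5:148104751-148105155 (405 bp), 13.9 kb from the start, had values of 14.6 and 10.8 and a percentile of 19.7. The third, at chr5:148081462-148081882 (421 bp), overlapped a coding exon at the start of Pdx1, the homeobox gene of the pancreas, and had values of 15.1 and 21.0 and a percentile of 51.0. Of these, the Pdx1 promoter peak alone ranked above the median of its list, and the nearest WT peak was 28.9 kb from it. Its replicates stood at percentiles of 33.9 and 64.6, on either side of the median.

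Eomes encodes a T-box factor of the trophoblast and of the early streak. A TSS peak at chr9:118388097-118388873 (777 bp), over a coding exon with its midpoint 506 bp downstream of the nearest of 3 annotated Eomes starts (gene body chr9:118387330-118395250, plus strand), was Spen KO clone 3-only. Its values of 7.54 and 10.1, rank of 22494 of 23656 (percentile 4.92) and IDR of 0.0457 made it the lowest-ranking member peak of either list, close to the limit of being listed. The replicates ranked it at percentiles of 1.83 and 10.6, and the nearest WT peak was 17.1 kb away.

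That nearest WT peak was shared, in intergenic sequence 18.3 kb downstream of the nearest annotated Eomes start and 9.09 kb from the nearest start of Golga4. In WT it spanned chr9:118405998-118406612 (615 bp) with values of 20.5 and 16.9 (percentile 46.5), and in Spen KO clone 3 chr9:118406096-118406500 (405 bp) with values of 14.8 and 11.0 (percentile 21.1). Both Spen KO clone 3 replicates (32.5 and 14.0) ranked below both WT replicates (52.4 and 39.8). The promoter of the neighbouring Golga4, which encodes a golgin of the trans-Golgi, had a WT-only peak at chr9:118415071-118415472 (402 bp) with values of 13.9 and 14.1 and a percentile of 19.8.

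T, which encodes Brachyury, the T-box factor of the primitive streak and notochord, had no peak in its locus of 108 kb (gene body chr17:8627288-8635361, plus strand) in either list. The nearest peak of both lists was 150 kb away at the promoter of Brp44l, a mitochondrial pyruvate carrier gene, with values of 17.4 and 18.1 in WT (percentile 41.1) and 18.0 and 16.3 in Spen KO clone 3 (percentile 45.6). The CpG ratio of the T promoter was 0.657, and every 24-base sequence in it occurred once in the genome.

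Mixl1, a paired-type homeobox gene of the streak, had no peak in Spen KO clone 3 and 1 in WT (gene body chr1:182623174-182627165, minus strand). The WT-only peak at chr1:182655827-182656627 (801 bp) had values of 16.9 and 15.8 and a percentile of 32.8. It lay 29.1 kb upstream of Mixl1 but 53 bp from the start of Acbd3, a gene of a Golgi protein, over a coding exon. The nearest Spen KO clone 3 peak to Mixl1 was 80.5 kb from the gene, at a percentile of 7.92.

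Gsc, the homeobox gene of the organizer, had the most shared peaks of the 10 genes. All 4 peaks of its locus were present in both lists, all lay in intergenic sequence downstream of the gene (gene body chr12:105709419-105711537, minus strand), and none was at its promoter. The peak nearest to the gene, 20 kb from the start, spanned chr12:105691143-105691856 (714 bp) in WT with values of 11.6 and 19.1 (percentile 26.4) and chr12:105691107-105691829 (723 bp) in Spen KO clone 3 with values of 20.1 and 19.1 (percentile 58.6). It was the only shared member peak at which both Spen KO clone 3 replicates (59.6 and 56.6) ranked above both WT replicates (11.9 and 50.4), and the WT replicates were far apart.

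The other Gsc peaks had overlapping replicate ranks. The peak 33.0 kb from the start, chr12:105678319-105678724 in WT (406 bp), had values of 21.7 and 12.5 (percentile 37.4), against 9.45 and 13.3 (384 bp, percentile 14.0) in Spen KO clone 3. The peak 40.0 kb from the start, chr12:105671329-105671776 (448 bp), had values of 15.8 and 17.1 (percentile 33.6), against 15.9 and 17.4 (480 bp, percentile 42.9). The peak 46.2 kb from the start, chr12:105665119-105665539 (421 bp), had values of 22.6 and 28.1 (percentile 70.8), against 30.7 and 24.5 (386 bp, percentile 81.9), and ranked highest of the Gsc peaks in both lists. It lay 43.9 kb from the gene body and 20.4 kb from the start of Serpina3n, a serine protease inhibitor gene outside the window. The next WT peak outward, 52.4 kb from the body of Gsc, was WT-only and low-ranking (values of 12.5 and 9.25, percentile 8.75).

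Across the 10 shared peaks the percentile in Spen KO clone 3 minus that in WT had a median of 1.43 (-25.5 to 32.1), where all 16928 shared pairs had a median of -0.0165 with quartiles of -9.67 and 9.53. The difference was positive at 6 peaks and negative at 4, and its median was negative when either replicate was ranked alone and when Gsc was left out (-9.99), so the members had no common direction. At 3 of 10 peaks both Spen KO clone 3 replicates ranked below both WT replicates (against 22.8% of all pairs), namely the Neil2 promoter (-20.4), the Foxa2 promoter (-24.9) and the Eomes distal peak (-25.5). At 1 of 10 both ranked above (against 23.1%), the Gsc peak at 20 kb (32.1). At that Gsc peak the WT replicates (11.9 and 50.4) were farther apart than the lists. At the other 6 peaks the replicates of the lists overlapped.

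**Figure D2:**
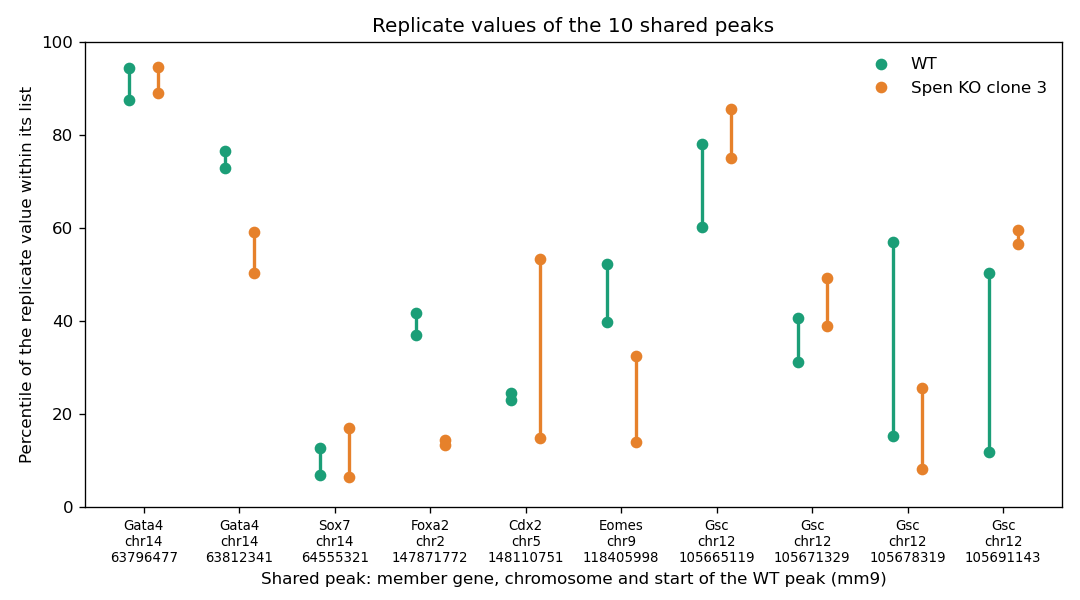
Percentile of each replicate value within its list (vertical axis, 0 to 100) for the 10 shared peaks at the loci, with WT in green and Spen KO clone 3 in orange; each point is 1 replicate and a line joins the 2 replicates of a list. The lines are apart at the Gata4 locus peak starting at 63812341 (the Neil2 promoter), at Foxa2, at Eomes and at the Gsc peak starting at 105691143, and they overlap at the other 6.

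The sequences of the member peaks were searched in their central 300 bp on both strands for the letters of 7 families. These were AGATAA for GATA factors, TGTTTAC for FOXA factors, ACAAAG and its variant ACAATG for SOX factors, AGGTGTGA for T-box factors, TTTATGG and its variant TTTATTG for CDX factors, TAATCC for GSC type homeodomains, and the octamer ATGCAAAT. SOX letters were in 7 of 16 WT windows (43.8%, against 28.8% of all WT peaks) and in 7 of 15 Spen KO clone 3 windows (46.7%, against 31.2%). These counts are not independent, because the same shared sites at the Fdft1 promoter, Sox7 and Gsc enter both, and Gsc gave several of them. GATA letters were in 1 WT and 1 Spen KO clone 3 window (6.25% and 6.67%, against 6.89% and 7.33%), and so was the octamer (against 3.30% and 3.34%), all in the shared Sox7 peak. FOXA and CDX letters were each in 1 WT window (6.25%, against 3.66% and 3.50%), both in the Sox17 peak, and in no Spen KO clone 3 window (against 3.69% and 3.53% of all peaks). T-box letters (in 0.969% and 0.909% of all peaks) and GSC type letters (5.78% and 6.05%) were in no member window. A match describes letters only and does not show that a factor binds.

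The central 300 bp of 5 distal peaks are given here because they are the list-only distal sites nearest to Sox17, Foxa2 and Cdx2, the Gsc site with the largest rank difference, and the Sox7 site with GATA, SOX and octamer letters. All are plus strand mm9 sequence, 5′ to 3′, with capitals for the motif letters above on either strand. The Sox17 window is chr1:4534185-4534484 (WT-only, intergenic), the Sox7 window chr14:64555335-64555634 (shared, Spen KO clone 3 peak, intergenic), the Foxa2 window chr2:147879120-147879419 (Spen KO clone 3-only, intergenic), the Cdx2 window chr5:148116410-148116709 (Spen KO clone 3-only, intronic) and the Gsc window chr12:105691319-105691618 (shared, Spen KO clone 3 peak, intergenic).
Sox17 distal: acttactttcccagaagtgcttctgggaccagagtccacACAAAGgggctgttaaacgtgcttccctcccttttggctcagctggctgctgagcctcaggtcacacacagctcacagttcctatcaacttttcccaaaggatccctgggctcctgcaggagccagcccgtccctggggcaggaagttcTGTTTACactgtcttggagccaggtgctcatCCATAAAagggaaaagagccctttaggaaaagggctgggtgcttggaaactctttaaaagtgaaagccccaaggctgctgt
Sox7 distal: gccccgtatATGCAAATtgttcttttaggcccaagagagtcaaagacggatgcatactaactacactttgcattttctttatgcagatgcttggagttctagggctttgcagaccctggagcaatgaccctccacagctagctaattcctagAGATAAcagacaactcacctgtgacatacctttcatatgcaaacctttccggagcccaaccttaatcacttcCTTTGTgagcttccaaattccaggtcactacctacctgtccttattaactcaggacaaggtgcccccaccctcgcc
Foxa2 distal: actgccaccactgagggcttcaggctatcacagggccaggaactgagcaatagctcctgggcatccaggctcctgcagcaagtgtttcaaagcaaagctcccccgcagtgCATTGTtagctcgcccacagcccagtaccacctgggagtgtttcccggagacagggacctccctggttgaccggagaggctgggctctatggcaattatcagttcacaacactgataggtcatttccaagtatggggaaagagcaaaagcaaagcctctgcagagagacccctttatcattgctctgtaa
Cdx2 intron: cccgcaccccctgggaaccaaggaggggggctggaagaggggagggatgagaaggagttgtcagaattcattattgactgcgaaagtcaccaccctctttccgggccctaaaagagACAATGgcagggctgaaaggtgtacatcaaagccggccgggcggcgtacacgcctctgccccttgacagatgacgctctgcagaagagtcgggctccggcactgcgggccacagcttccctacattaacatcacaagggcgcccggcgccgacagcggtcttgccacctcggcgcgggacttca
Gsc distal: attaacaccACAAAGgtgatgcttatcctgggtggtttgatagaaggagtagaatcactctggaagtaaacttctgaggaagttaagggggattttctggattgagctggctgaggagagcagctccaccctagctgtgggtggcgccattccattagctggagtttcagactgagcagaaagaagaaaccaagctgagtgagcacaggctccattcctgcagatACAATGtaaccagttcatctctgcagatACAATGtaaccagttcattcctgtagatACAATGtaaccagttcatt
In the Gsc window the letters ACAATG recurred 3 times on the plus strand at a spacing of 28 bp, and the repeated units matched the first at 25 or more of 28 bases. Of the 24-base sequences of this peak, 94.3% in Spen KO clone 3 and 94.1% in WT occurred once in the genome, the lowest share of the member peaks in each list.

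Other regulators of the same lineages were counted in the same way. Of 71 genes in 6 lists of lineage regulators and markers, 18 had a TSS peak in both lists, 5 in WT only (Pax6, Olig2, Krt18, Ascl2 and Nog), 3 in Spen KO clone 3 only (Sox3, Otx1 and Pdx1) and 45 in neither. Over all coding genes these shares were 37.1%, 8.23%, 4.43% and 50.3%. The WT-only values were 16.1 and 11.1 at Pax6, 15.3 and 19.2 at Olig2, 10.1 and 11.5 at Krt18, 13.0 and 16.2 at Ascl2, and 17.0 and 14.2 at Nog. The Spen KO clone 3-only values were 9.25 and 8.60 at Sox3 and 11.1 and 11.7 at Otx1, besides those of Pdx1 above. Of these 8 peaks, that of Pdx1 alone ranked above the median of its list. The primitive streak and mesoderm list had a TSS peak at 1 of 17 genes, Snai1, whose values were 23.1 and 26.0 in WT and 24.3 and 23.3 in Spen KO clone 3. TSS peaks in both lists were found at 3 of 11 neuroectoderm genes, 3 of 12 definitive endoderm genes, 5 of 12 primitive endoderm and yolk sac genes, 4 of 12 trophoblast genes and 2 of 9 genes of Nodal and Bmp ligands and inhibitors, against the same 37.1% of coding genes.

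TSS peaks were also counted at close relatives of the members, some of which had one and some of which had none. Of 6 GATA genes, Gata3, a trophoblast gene, had a strong TSS peak in both lists (32.8 and 38.2 in WT, 39.4 and 26.4 in Spen KO clone 3), and Gata4 was the only other with one. None of the 3 SOXF genes had a TSS peak, as was so for 50.3% of coding genes. The shares of coding genes given with the T-box genes below apply to every family here. Of 3 FOXA genes, Foxa3 joined Foxa2 (21.0 and 18.6 in WT, 15.7 and 12.9 in Spen KO clone 3), of 3 CDX genes only Cdx4 had one (19.1 and 18.4, then 19.9 and 18.9), and of the GSC pair Gsc2 had one (12.8 and 10.9, then 8.47 and 8.26). Of 16 T-box genes, 5 had a TSS peak in both lists (Tbx2, Tbx3, Tbx15, Tbx18 and Tbx20, against 37.1% of coding genes), none in WT only (against 8.23%), and 3 in Spen KO clone 3 only (against 4.43%). Those 3 were Eomes, Tbx22 (values of 19.3 and 11.4) and Tbr1 (7.96 and 9.91). Tbr1, the closest paralog of Eomes, had a percentile of 5.28, and Eomes had one of 4.92. Both peaks were thus among the weakest that the list kept, and nothing is read from their likeness.

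Markers of the cells themselves were checked at the same promoters, where a peak shows accessibility and not expression. Of 10 mESC markers, Pou5f1, Klf2, Esrrb, Zfp42 and Tfcp2l1 had a TSS peak in both lists, Sox2 in WT only (11.8 and 17.8), Klf4 in Spen KO clone 3 only (9.65 and 9.12), and Nanog, Dppa5a and Tdgf1 in neither. Over all coding genes 37.1% had one in both lists, 8.23% in WT only, 4.43% in Spen KO clone 3 only and 50.3% in neither, which also applies to the marker lists that follow. Of 6 fibroblast or feeder markers only Thy1 had one, in WT only (13.6 and 15.3), and of 2 neural markers only Pax6, in WT only. Of 6 primitive endoderm markers, Pdgfra and Dab2 had one in both lists and Gata4 in WT only, and of 4 trophoblast markers Gata3 alone had one. Whether a promoter without a listed peak was closed, or open below the threshold of the list, cannot be told apart here, at these markers or at the 10 member genes.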

How the data were processed

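ATAC-seq peak lists of HATX WT and Spen KO clone 3 were used, 1 list per line. Per the methods of the authors, reads were trimmed (CutAdapt), aligned to mm9 (Bowtie2), limited to uniquely mapped proper pairs and cleared of duplicates (Picard). Peaks were called for each technical replicate (MACS2, no shifting model) and filtered by IDR. Versions are not given in the sources used here. For every peak the authors deposited a width, a value for each of 2 replicates on an unnamed scale, and the IDR. The score computed here is the mean of both deposited values. Depth is unknown, and presence in a list depends on it. As multiply mapped reads were dropped, copies of 24-base sequences were counted.

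Coordinates count from 1. Peaks outside chromosomes 1 to 19 and X (55 WT, 66 Spen KO clone 3) were left out. The reference was the mm9 sequence with its GENCODE annotation. Of the lineage genes, Sox1 could not be matched, and some older symbols were matched through RefSeq synonyms. With 1 list per line no test was made. Named peaks were the TSS peaks, list-only peaks and top distal peaks of each locus, and the other shared peaks were added after seeing the data, so that all member peaks are given. Of the other lineage lists, genes with a TSS peak in 1 list only were to be named, with at most 4 more per list. In the T-box and mESC marker lists more genes than this were named. The members and lists were chosen with earlier results of these data known. The CpG measure, the 24-base copies, the motif spacing and the leaving out of single loci were chosen after seeing the data. CpG was first measured at the 5′-most start (7 members and 6689 coding genes CpG-rich), then at the start richest in CpG, since the 5′-most start of Gata4 is far from its others. Alternatives were other windows, overlaps, IDR limits, list lengths, TSS sets, replicates and ranks. Overlap, ranks, windows and copies were tested on simulated data (6 checks, 0 errors). Overlaps were found with bedtools 2.31.1, sequences were read with samtools 1.23.1 and pysam 0.24.0, copies were counted with numba 0.67.0, and the rest ran in Python 3.11.15 with pandas 2.3.3, numpy 2.4.6 and matplotlib 3.10.9.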

Additional observations from a re-analysis of the deposited data

How the results depend on the processing

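The median rank difference of the shared peaks (1.43) changed sign under 6 settings. It was -2.76 with replicate 1 alone, -1.79 with replicate 2 alone, -4.90 with the smaller replicate value, -8.98 with a window of 20 kb, -1.30 with a window of 100 kb and -9.99 without the Gsc locus. It was 5.87 without Gata4, 0.416 without Sox7 or Cdx2, and 2.44 without Foxa2 or Eomes. The cause was not tested beyond the loci and peaks that each setting removes or adds.

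The counts of peaks followed the window. With 20 kb there were 3 WT-only, 4 Spen KO clone 3-only and 6 shared peaks in each list. With 100 kb there were 10 WT-only, 9 Spen KO clone 3-only and 20 shared peaks in each list. Over all peaks, 25.7% of WT peaks were WT-only and 28.6% of Spen KO clone 3 peaks were Spen KO clone 3-only. No result about the members is drawn from these counts. With an IDR of at most 0.01, each list had 4 shared peaks. Of the 9 WT peaks 5 were then WT-only (55.6%, against 26.9% of all WT peaks), and 2 of these, the Foxa2 promoter and the Eomes distal peak, had been shared until the weaker peak of the other list was dropped. Of the 6 Spen KO clone 3 peaks 2 were Spen KO clone 3-only (33.3%, against 22.4%), the Pdx1 promoter and, for the same reason, the Gsc peak nearest to the gene. A TSS peak was then present at 1 gene in WT (Foxa2) and 0 in Spen KO clone 3, and the share of coding genes at this limit was not counted. Without the Gata4 locus there were 3 WT-only peaks beside 8 shared WT peaks (against 25.7% WT-only over all WT peaks). Without Cdx2 there were 2 Spen KO clone 3-only peaks beside 9 shared ones (against 28.6%), and without Gsc 6 shared peaks in each list. With a TSS window of 2500 bp, 3 genes had a TSS peak in Spen KO clone 3 and 2 in WT. The share of coding genes under this window was not counted. Over all settings, 63 values stayed within 1.5 times the count reported or within the spread of the replicates, 21 did not, and 6 changed sign. Some of the 63 could not change, such as the counts without Gata6 or T, whose loci held no peak. The tally is therefore no measure of how stable the counts are. The single-locus settings were chosen after seeing the data. No paired analysis was possible because each line has 1 list and no test was made. Depth is unknown, so for weak peaks found in 1 list, such as those at the Gata4 and Eomes promoters, absence from the other list and a signal under its threshold cannot be told apart.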
